A study of Mus musculus with 6 samples.

Results

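The genes described here encode 9 subunits of the ionotropic glutamate receptors, the AMPA receptor subunits Gria1, Gria2, Gria3 and Gria4 and the NMDA receptor subunits Grin1, Grin2a, Grin2b, Grin2c and Grin3a. They were taken by name from the 37620 Ensembl genes counted in each sample, and each name matched 1 gene. To examine which subunits were ribosome bound in cells of the Gli1 lineage, and whether deletion of Klf9 changed them, RiboTag profiles of the mouse dentate gyrus were compared between 3 Klf9 +/+ and 3 Klf9 f/f samples. All mice of both groups carried the tamoxifen-inducible Gli1CreERT2 driver and 1 Rpl22HA allele and were given 3 intraperitoneal injections of tamoxifen, 250 mg/kg and 12 hr apart, at 2 to 3 months of age. In Klf9 f/f mice, whose samples are titled knock down, the same Cre that tags the ribosomes also acts on Klf9 and removes its exon 1. By the study's estimate in reporter mice, which were given a single, lower dose of tamoxifen, not all labelled stem cells had recombined Klf9. For the RiboTag material the study proposes, from Klf9 qRT-PCR, that most targeted cells had recombined it. The deletion is therefore not taken as complete. Tissue was taken 4 days after the last injection, and each sample pools 6 dentate gyri of 3 mice, so that single animals are not resolved. By their library names the samples belong to 2 library series, YTa22 with replicates 1 and 2 of either genotype and YTa32 with replicate 3 of either genotype.

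AMPA receptors carry most of the fast excitatory current at central synapses, and their Gria2 subunit sets whether calcium can pass. NMDA receptors are built on the obligatory Grin1 subunit, which is joined by subunits of the Grin2 group that set channel kinetics and magnesium block, or by Grin3a, which binds glycine and lowers calcium flux. In the forebrain these genes are best known from neurons, while Grin2c transcripts are also abundant in astrocytes, the cell type that radial-glial neural stem cells (RGLs) most resemble.

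A single position of the pore loop, which governs the ions that pass, holds a different residue in the AMPA and NMDA subunits, and its codon is shown in capitals within the coding sequence of 8 of the genes (mouse mm9, GENCODE M1 transcripts, 5′ to 3′). In the AMPA subunits this is the Q/R site, where the genome encodes glutamine in all 4 genes and where the Gria2 mRNA is known to be edited to arginine. In Grin1, Grin2a and Grin2c the matching site is an asparagine, and in Grin3a it is a glycine. Counts per gene do not distinguish edited from unedited Gria2 mRNA.
Gria1: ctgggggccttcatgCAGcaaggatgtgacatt
Gria2: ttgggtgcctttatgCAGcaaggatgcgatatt
Gria3: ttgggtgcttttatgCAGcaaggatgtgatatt
Gria4: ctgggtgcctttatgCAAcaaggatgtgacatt
Grin1: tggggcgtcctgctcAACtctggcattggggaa
Grin2a: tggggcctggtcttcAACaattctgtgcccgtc
Grin2c: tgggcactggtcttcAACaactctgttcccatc
Grin3a: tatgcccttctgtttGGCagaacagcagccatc

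Each of these codons lies within a coding exon. The Gria2 codon is in exon 11 of 17 on the minus strand, at chr3:80510833-80510835 of mm9, and the Grin2c codon is in exon 11 of 15 on the minus strand, at chr11:115115177-115115179. Every annotated transcript in which the site was found carried the same letters around it.

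Reads counted on genes ranged from 21594714 to 66343759 per sample, with the lowest totals in the YTa32 samples. Counts of the 9 subunit genes ranged from 139 reads for Gria4 in Klf9 f/f replicate 3 to 24739 reads for Gria2 in Klf9 f/f replicate 1, which gives counting errors of 8.48% and 0.636%. Klf9 itself, counted over the whole gene and not over the deleted exon alone, measured 114, 121 and 120.0 CPM (counts scaled by library size) in the Klf9 f/f samples, below the 201, 204 and 139 CPM of the Klf9 +/+ samples, with a log2 fold change of -0.59 (standard error 0.15). The sum over 10 astrocyte markers was 2457 to 3109 RPKM (TMM-scaled CPM per kilobase of merged exons) in Klf9 +/+ and 3227 to 3754 RPKM in Klf9 f/f, and that over 8 RGL markers was 1001 to 1723 and 1250 to 1482 RPKM. Granule neuron markers, 10 in all, were also counted, at 295 to 567 RPKM in Klf9 +/+ and 303 to 439 RPKM in Klf9 f/f, and no marker of these 3 lists was at 0 in all samples. Markers of interneurons (8 genes, 28.8 to 62.8 RPKM), oligodendrocyte precursors (5 genes, 16.4 to 31.1 RPKM), oligodendrocytes (5 genes, 60.1 to 94.9 RPKM), microglia (5 genes, 26.8 to 37.4 RPKM) and meninges (6 genes, 153 to 508 RPKM) were counted in all samples. The 8 choroid plexus markers ranged most, from 93.0 to 1976 RPKM in Klf9 +/+ and from 6.13 to 295 RPKM in Klf9 f/f. No library of the input tissue is among the samples, so enrichment over the tissue cannot be read. The levels below are therefore not assigned to a cell type.

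**Figure D1:**
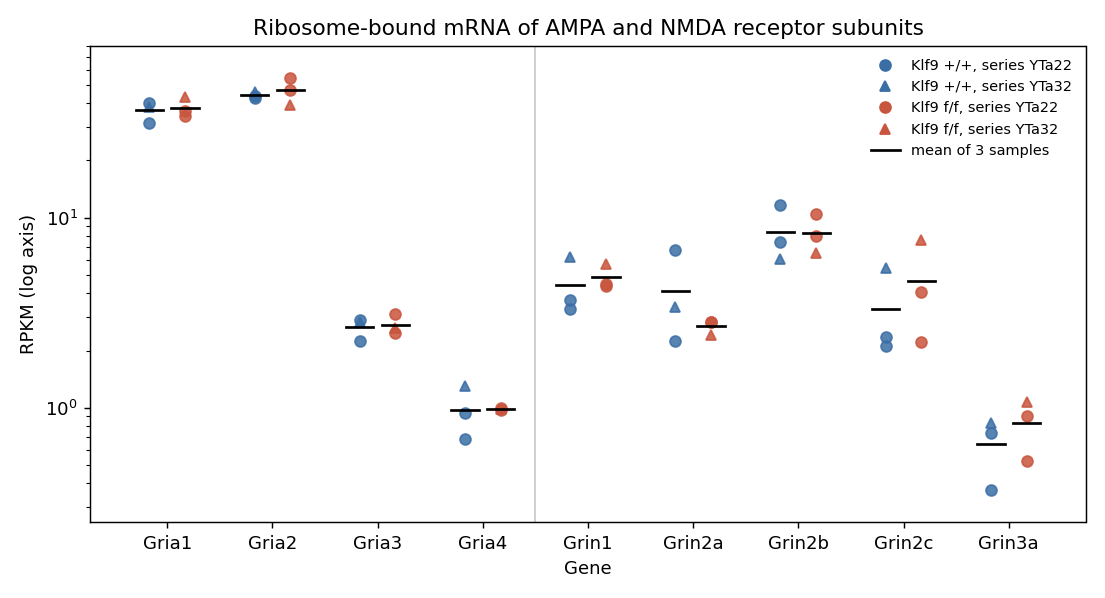
Level of each subunit gene in each of the 6 samples, in RPKM on a log axis, with genotypes in colour, library series by symbol and the mean of 3 samples as a bar. Gria1 and Gria2 lie between 31.4 and 54.3 RPKM in all samples, above every value of the other 7 genes.

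Gria2 and Gria1 were the most abundant of the 9 genes, and Gria4 was the least abundant of the AMPA subunits. Gria2 (ENSMUSG00000033981, chr3:80488858-80606713 of mm9) stood at 43.7, 42.4 and 45.9 RPKM in Klf9 +/+ replicates 1, 2 and 3 and at 54.3, 47.0 and 39.1 RPKM in Klf9 f/f replicates 1, 2 and 3. The highest and the lowest of these 6 values both came from Klf9 f/f, so the genotypes overlapped. Its level averaged 44.0 ± 1.78 (SD, n = 3) RPKM in Klf9 +/+ and 46.8 ± 7.60 (SD, n = 3) RPKM in Klf9 f/f. The log2 fold change, Klf9 f/f over Klf9 +/+ with the library series as a term, was 0.08 (95% interval -0.25 to 0.42).

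Gria1 (ENSMUSG00000020524, chr11:56824889-57143746), whose delivery to synapses follows activity, stood at 40.3, 31.4 and 38.4 RPKM in Klf9 +/+ and at 36.4, 34.3 and 43.1 RPKM in Klf9 f/f replicates 1, 2 and 3. Its values in the genotypes interleaved, and the log2 fold change was 0.04 (95% interval -0.28 to 0.36). Gria3 (ENSMUSG00000001986, chrX:38754031-39031778) ran from 2.26 to 2.89 RPKM in Klf9 +/+ and from 2.46 to 3.12 RPKM in Klf9 f/f, with a log2 fold change of 0.05 (95% interval -0.32 to 0.42). Gria4 (ENSMUSG00000025892, chr9:4417899-4796234), a subunit of fast receptors, stood at 0.687, 0.935 and 1.30 RPKM in Klf9 +/+ and at 0.995, 0.972 and 0.987 RPKM in Klf9 f/f. The Klf9 f/f samples thus lay inside the range of the Klf9 +/+ samples. The Gria4 log2 fold change was 0.06, with a wider interval of -0.48 to 0.60. None of the 4 AMPA subunits passed the threshold of the study's methods, at least 1.2-fold with an unadjusted p under 0.05.

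The 5 NMDA receptor subunits all lay below Gria1 and Gria2, and 4 of them had a higher mean level than Gria3 and Gria4. Grin1 (ENSMUSG00000026959, chr2:25146701-25174707), the obligatory subunit, stood at 3.70, 3.30 and 6.24 RPKM in Klf9 +/+ and at 4.49, 4.38 and 5.72 RPKM in Klf9 f/f replicates 1, 2 and 3. Replicate 3 was the highest in each genotype, and the genotypes overlapped. The log2 fold change was 0.19 (95% interval -0.14 to 0.51). An antisense transcript, E130003G02Rik, shares 1307 bases, or 13.5%, of the merged exons of Grin1, and reads there cannot be assigned to either gene because counting ignored strand.

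Grin2b (ENSMUSG00000030209, chr6:135679844-136123529), the Grin2 subunit that predominates early in development, stood at 11.6, 7.46 and 6.06 RPKM in Klf9 +/+ and at 8.01, 10.5 and 6.49 RPKM in Klf9 f/f. The means of the genotypes, 8.38 ± 2.90 (SD, n = 3) and 8.33 ± 2.02 (SD, n = 3) RPKM, differed by less than the spread between samples. The log2 fold change of Grin2b was 0.0017 (95% interval -0.42 to 0.42). Grin3a (ENSMUSG00000039579, chr4:49674483-49858616) had the lowest mean of the 9 genes with merged exons as length, though not with the longest transcript, and it stood at 0.738, 0.369 and 0.837 RPKM in Klf9 +/+ and 0.904, 0.524 and 1.07 RPKM in Klf9 f/f. The difference was 0.37 on the log2 scale (95% interval -0.29 to 1.02), and it did not pass the threshold. Without Klf9 +/+ replicate 1 the log2 fold change of Grin3a was 0.69, with an unadjusted p of 0.0430 in the same edgeR test, while without Klf9 f/f replicate 1 it was 0.11 and without Klf9 +/+ replicate 2 it was 0.12.

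Grin2c (ENSMUSG00000020734, chr11:115110483-115128557) was the single subunit gene that passed the threshold. It stood at 2.35, 2.10 and 5.42 RPKM in Klf9 +/+ replicates 1, 2 and 3 and at 4.06, 2.22 and 7.66 RPKM in Klf9 f/f replicates 1, 2 and 3. Replicate 3 was the highest of each genotype, and Klf9 f/f replicate 2 lay below Klf9 +/+ replicate 1 of its own series, so the genotypes overlapped both over all samples and within YTa22. The log2 fold change was 0.50 (standard error 0.22, 95% interval 0.0085 to 0.99), with an unadjusted p of 0.0469 and, after Benjamini-Hochberg adjustment over all genes in the quasi-likelihood test of edgeR, an adjusted p of 1.00. The log2 difference was 0.43 within YTa22 and 0.50 within YTa32. The call was lost when any sample other than Klf9 f/f replicate 2 was left out, and without Klf9 f/f replicate 1 the log2 fold change fell to 0.22. In the same samples, 10 of 10 astrocyte markers were positive on the log2 scale (median 0.40), and 5 of them passed the threshold. The range of the astrocyte marker sum, given above, did not overlap between the genotypes, but its largest part was Aldoc, at a mean of 1532 RPKM. Taken singly, 0 of the 10 astrocyte markers had genotypes that did not overlap, where 3.39% of all genes tested did not. By their fitted values, 8 of 8 choroid plexus markers were lower in Klf9 f/f (median -2.73), and all of them passed the threshold. Also lower were 7 of 7 endothelial markers, of which 2 passed (median -0.99), and 6 of 6 meningeal markers, of which 0 passed (median -0.43). Of all genes tested, 1.82% were called higher and 2.50% lower. The smallest adjusted p among these marker lists, in the quasi-likelihood test, was 0.208, for a choroid plexus marker. The part of any of these markers in the Grin2c difference was not tested, and in pooled tissue more tagged cells of a type and more ribosome-bound mRNA per cell cannot be told apart.

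Grin2a (ENSMUSG00000059003, chr16:9577803-9995014), the Grin2 subunit that rises as neurons mature, was the single one of the 9 genes with a negative fitted difference. It stood at 6.76, 2.24 and 3.39 RPKM in Klf9 +/+ and at 2.82, 2.82 and 2.40 RPKM in Klf9 f/f. Klf9 +/+ replicate 1 lay apart at 6.76 RPKM, while the other 5 samples stayed between 2.24 and 3.39 RPKM. The log2 fold change was -0.62 (95% interval -1.37 to 0.14) and did not pass the threshold. Without Klf9 +/+ replicate 1 it was -0.02, and without Klf9 +/+ replicate 2 it was -0.95, with an unadjusted p of 0.00165 in the same edgeR test. Klf9 +/+ replicate 1 also had the highest sum of 7 endothelial markers, at 64.2 RPKM against 10.9 to 50.2 RPKM in the other samples. Cldn5 alone made up 36.6 RPKM of it. Cldn5, Flt1 and Slco1a4 were highest in this sample, while Pecam1, Kdr, Tek and Cdh5 were highest in Klf9 +/+ replicate 3. The sum of RGL markers was highest in Klf9 +/+ replicate 1 too, at 1723 RPKM. Nes, Sox2, Hopx, Fabp7 and Vim were highest in this sample, while Thbs4, Lpar1 and Sox9 were not. The sum of interneuron markers was 62.8 RPKM in this sample, against 61.3 and 59.1 RPKM in Klf9 f/f replicates 1 and 2. Npy, Vip and Pvalb were highest in Klf9 +/+ replicate 1, but Gad2 and Lhx6 were lowest in it. Gad1, Sst and Slc32a1 were highest in other samples. The part of any of these markers in the Grin2a level was not tested.

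**Figure D2:**
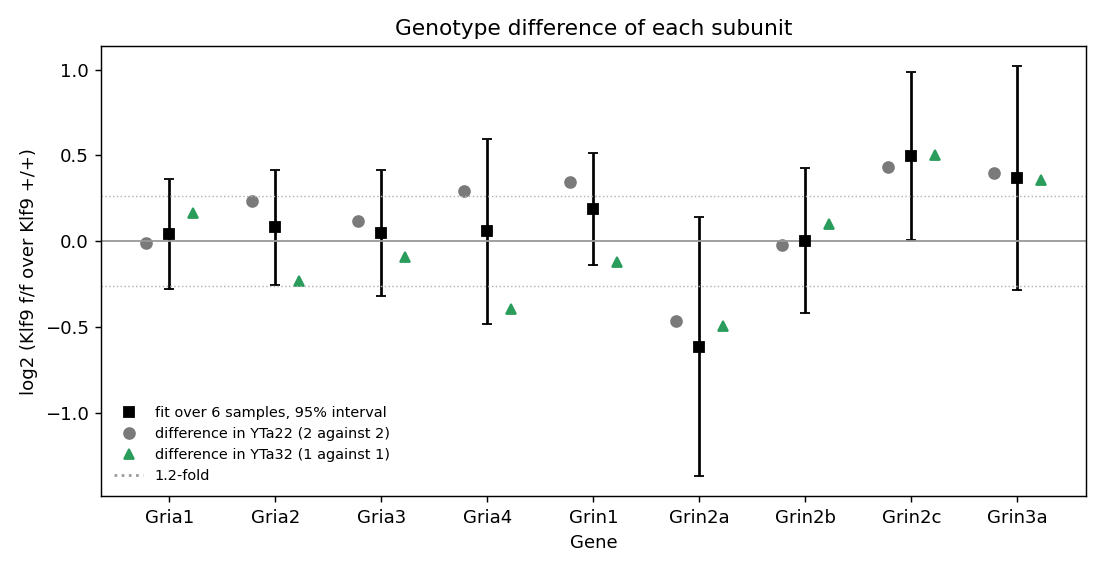
Log2 fold change of each subunit gene, Klf9 f/f over Klf9 +/+. Squares give the fit over 6 samples with its 95% interval, circles the difference within YTa22 and triangles that within YTa32, and dotted lines mark 1.2-fold. The interval of Grin2c, from 0.0085 to 0.99, is the single interval that excludes 0.

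In all, 1 of the 9 subunit genes was called higher in Klf9 f/f and 0 were called lower, where 1.82% of the 15056 genes tested were called higher, 2.50% lower and 4.32% in either direction. After adjustment over all genes tested, 0 of the 9 had an adjusted p under 0.05 in edgeR's quasi-likelihood test, and 1 of the 9 had an unadjusted p under 0.05. The median log2 fold change was 0.06 over the 9 genes and 0.00084 over all genes tested, and 8 of the 9 were positive. The genotypes overlapped for all 9 genes, while 3.39% of all genes tested did not overlap in one direction or the other. Within YTa32, which holds 1 sample of each genotype, the difference was negative for Gria2, Gria3, Gria4, Grin1 and Grin2a and positive for the other 4 genes.

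**Figure D3:**
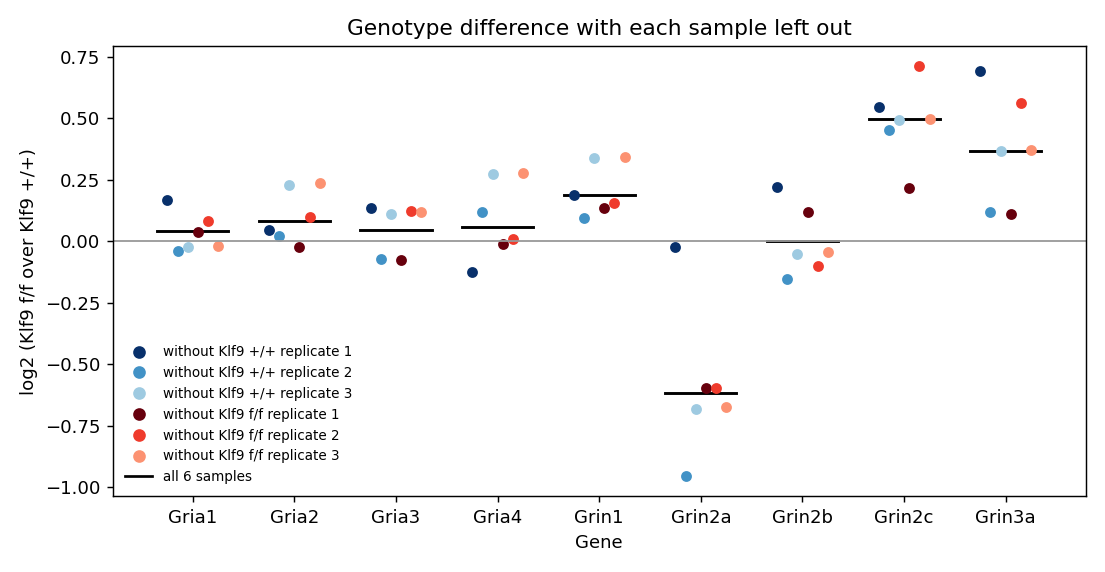
Log2 fold change of each subunit gene, Klf9 f/f over Klf9 +/+, with all 6 samples (bars) and with each sample left out in turn (points). Grin2a lies at -0.02 without Klf9 +/+ replicate 1, and Grin2c runs from 0.22 to 0.71.

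Ordered by mean level over the 6 samples, the genes ran Gria2 (45.4 RPKM), Gria1 (37.3 RPKM), Grin2b (8.36 RPKM), Grin1 (4.64 RPKM), Grin2c (3.97 RPKM), Grin2a (3.40 RPKM), Gria3 (2.70 RPKM), Gria4 (0.980 RPKM) and Grin3a (0.740 RPKM). Gria2 lay above 88.6% of all genes tested and Grin3a above 12.2%. The widest step was between Gria1 and Grin2b, at 4.47-fold and in the same direction in 6 of 6 samples, and Gria3 lay above Gria4 in 6 of 6 samples at 2.75-fold. Neighbours from Grin1 to Gria3 could not be ordered beyond their spread, since Grin2c exceeded Grin2a in 3 of 6 samples and Grin2a exceeded Gria3 in 3 of 6. Likewise Gria4 exceeded Grin3a in 4 of 6 samples, so these were not ordered either. Gria2 exceeded Gria1 in 5 of 6 samples, and the exception was Klf9 f/f replicate 3. These levels divide by merged exons, which are long for genes with many annotated transcripts. Divided by the longest transcript instead, Grin1 ranked above Grin2b, Gria3 above Grin2c and Grin2a, and Grin3a above Gria4, while Gria2 and Gria1 stayed in the leading places. On that scale Gria2 exceeded Gria1 in 4 of 6 samples, since the genes were nearly equal in Klf9 +/+ replicate 1, at 43.7 RPKM for Gria2 and 43.9 RPKM for Gria1.

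As a share of the summed AMPA subunits, Gria2 made up 49.9, 55.0 and 51.9% in Klf9 +/+ replicates 1, 2 and 3 and 57.3, 55.4 and 45.5% in Klf9 f/f replicates 1, 2 and 3. Gria1 made up most of the rest, at 38.4 to 50.2% over the 6 samples, and Gria3 and Gria4 together added little, at 2.90 to 3.30% and 0.784 to 1.47%. The mean Gria2 share was 52.3 ± 2.60% for Klf9 +/+ and 52.7 ± 6.30% for Klf9 f/f (SD, n = 3 each), a difference smaller than the spread between samples. The summed level of the AMPA subunits was narrow, from 76.9 to 94.8 RPKM over the 6 samples, and that of the 5 NMDA subunits ran from 15.5 to 25.2 RPKM.

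The sum of the 5 NMDA subunits was divided differently in the library series. This sum leaves out Grin2d and Grin3b, which stood at means of 1.11 and 0.364 RPKM. In YTa22, Grin2b held 39.5 to 51.3% of the summed NMDA subunits and Grin2c 9.34 to 20.0%. In YTa32, Grin2b held 27.6% in Klf9 +/+ and 27.8% in Klf9 f/f, and Grin2c held 24.7 and 32.8%. The Grin1 share was 14.7 to 22.1% in YTa22 and 28.5 and 24.5% in YTa32. These shares depend on gene length, and with the longest transcript the mean share over the 6 samples was 36.2% for Grin1, 32.1% for Grin2b and 13.7% for Grin2c, against 22.1, 40.1 and 18.6% with merged exons. The mean Gria3 share of the AMPA subunits was 5.52% with the longest transcript and 3.11% with merged exons. By genotype, the Grin2c share was 15.9 ± 7.92% for Klf9 +/+ and 21.2 ± 11.0% for Klf9 f/f (SD, n = 3 each), a difference smaller than the spread within either genotype.

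**Figure D4:**
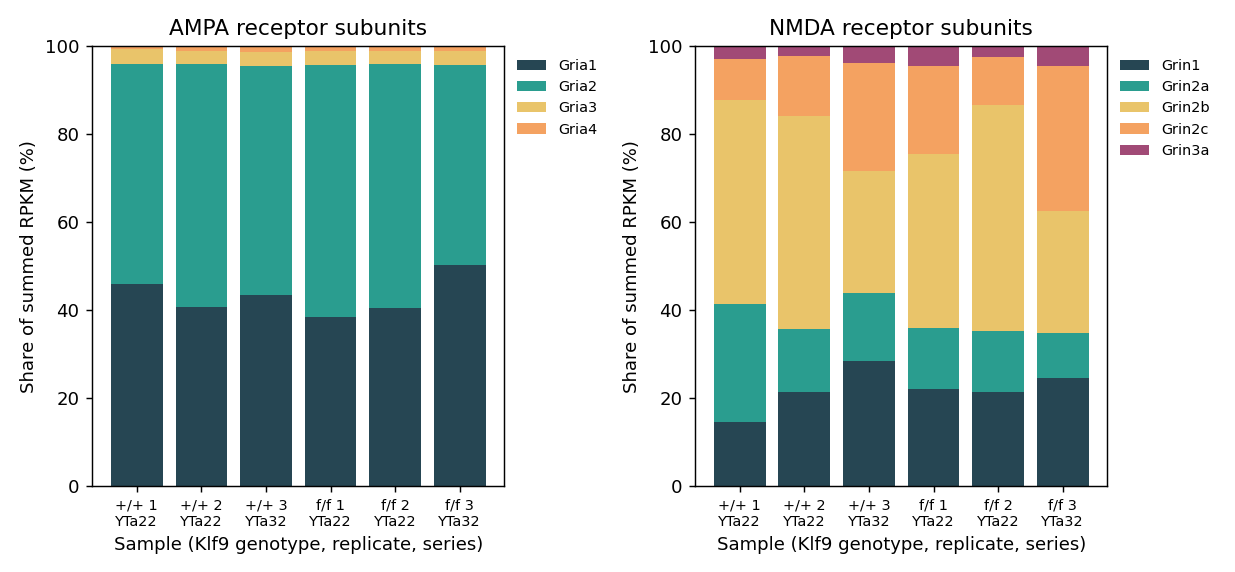
Share of each subunit in the summed RPKM of the AMPA subunits (left) and of the 5 NMDA subunits described here (right) in each sample, in percent. Gria1 and Gria2 fill nearly all of each AMPA bar, and Grin2c reaches 24.7 and 32.8% in the YTa32 samples.

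The library series was tested in the same fit as the genotype, and 2 of the 9 genes differed between series at an adjusted p under 0.05, both higher in YTa32. Over all genes tested, 29.5% differed at this threshold, 12.9% higher and 16.6% lower in YTa32. For Grin2c the log2 difference, YTa32 over YTa22, was 1.28 (standard error 0.22, quasi-likelihood test of edgeR, adjusted p = 0.00568), which was larger than its genotype difference of 0.50. For Grin1 it was 0.61 (standard error 0.15, adjusted p = 0.0171 in the same test). Grin2b was lower in YTa32 by the fitted values, with a log2 difference of -0.58 (standard error 0.20, adjusted p = 0.0592), and did not pass. The 4 AMPA subunits differed between the series by -0.13 to 0.36 on the log2 scale, with adjusted p from 0.300 to 0.933. The YTa32 samples also had fewer reads on genes and a share of ambiguous reads of 1.35 to 1.38%, against 2.42 to 2.64% in YTa22. At an adjusted p under 0.05, 8 of 8 choroid plexus markers and 2 of 10 astrocyte markers (Gfap and Fgfr3) were higher in YTa32, and 3 of 10 granule neuron markers (Calb1, Snap25 and Stmn2) were lower. The part of depth, ambiguous reads or these markers in the series differences of Grin2c and Grin1 was not tested. The interaction of genotype and library series had an unadjusted p under 0.05 for 0 of the 9 genes and for 1.53% of all genes tested.

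The other ionotropic glutamate receptor genes, a list of 9 with kainate, delta and further NMDA subunits, were all tested, and 0 passed the genotype threshold in either direction. Their median log2 fold change was 0.25, and 7 of 9 were positive. Grik5, a kainate receptor subunit that does not form channels alone, was the highest of the list, at 8.52 ± 1.67 RPKM for Klf9 +/+ and 9.67 ± 2.74 RPKM for Klf9 f/f (SD, n = 3 each), a level close to that of Grin2b. Grik3 was the lowest, at a mean of 0.183 RPKM. Of this list, 2 genes were higher in YTa32 at an adjusted p under 0.05 and 0 were lower.

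Of 24 genes for proteins that assemble, traffic or edit AMPA receptors, 23 were matched to a counted gene and tested, and 1 was called higher and 0 lower in Klf9 f/f. The called gene was Nptxr, which encodes the neuronal pentraxin receptor that clusters AMPA receptors. It stood at 0.771, 0.700 and 2.76 RPKM in Klf9 +/+ and at 1.29, 1.24 and 3.46 RPKM in Klf9 f/f, so that the Klf9 f/f samples were higher within each library series and the genotypes overlapped across the series. The log2 fold change of Nptxr was 0.63 (standard error 0.19, unadjusted p = 0.00982, adjusted p = 1.00 in the quasi-likelihood test of edgeR). Cnih2, a cornichon that escorts AMPA receptors from the endoplasmic reticulum, was the most abundant gene of the list, at a mean of 259 RPKM, and Grip2, a scaffold, the least abundant at 0.180 RPKM. Cnih2 stood at 229 to 353 RPKM in YTa22 and at 154 and 140 RPKM in YTa32. The list's median log2 fold change was 0.05, with 15 of 23 positive, and 4 genes were higher and 4 lower in YTa32 at an adjusted p under 0.05.

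Of 22 genes for the supply of NMDA receptor co-agonists and for postsynaptic scaffolds, 0 passed the genotype threshold, 19 had a positive log2 fold change and the median was 0.10. Phgdh, which starts the synthesis of serine and is typical of astrocytes, led the list, at 162 ± 47.5 (SD, n = 3) RPKM in Klf9 +/+ and 197 ± 16.2 (SD, n = 3) RPKM in Klf9 f/f. In YTa32, 5 genes of this list were higher and 1 was lower at an adjusted p under 0.05. Across these 3 lists the smallest adjusted p of the genotype difference was 1.00, so that Nptxr and Grin2c passed the unadjusted threshold alone.

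The genes with the pattern most like a subunit were found by the root mean square difference of log2 CPM over the 6 samples, after each gene was centred on its own mean. For Grin2c these were Lgi4, a secreted protein of glia (0.058), Adcy3, an adenylate cyclase (0.099), and Gm1614 (0.105), against a standard deviation of 0.78 for Grin2c itself over the samples. For Gria2 they were Apbb3, Lrrtm3, a synaptic adhesion protein, and Ppic, at 0.046, 0.048 and 0.054 with a standard deviation of 0.16 for Gria2. For Grin2b they were Cyba, Arl2 and Dusp23, at 0.055, 0.060 and 0.060 with a standard deviation of 0.37 for Grin2b. Each search ran over 15055 other genes and 6 samples of 2 library series, and it describes likeness in these samples alone.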

How the data were processed

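Ribosome-bound mRNA of 3 Klf9 +/+ and 3 Klf9 f/f samples was sequenced from Clontech ultra-low-input libraries. Per the study's methods, the authors mapped reads with STAR to mouse mm9 and used HTSeq, ignoring strand, to count them per gene, and the deposited values are raw counts per gene. The 5 HTSeq summary lines were left out, of which reads on no gene came to 6.33 to 7.66% of the total in YTa22 and to 10.9 and 12.2% in YTa32. Of 37620 genes, 37205 were named from GENCODE M1, the annotation of the same build. Gene lengths were merged exons or, as an alternative, the longest transcript.

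Testing was limited to genes that exceeded 1 CPM, here without TMM scaling, in 1 or more samples. It used edgeR 4.0.16 in R 4.3.3 (TMM, glmQLFit, glmQLFTest, library series as a term, 3 residual degrees of freedom). Log2 CPM used a prior count of 2. Calls follow the study's methods (1.2-fold, unadjusted p under 0.05), and Benjamini-Hochberg adjusted p-values are given over all 15056 genes. The 95% intervals used the standard errors and degrees of freedom of this test. The replicate numbers are running numbers and pair no samples. Nothing says that samples came from separate litters or days, so p-values measure the spread between these pools. Alternatives were DESeq2 1.42.0, the likelihood-ratio test, upper-quartile scaling, other filters, no series term, YTa22 alone and each sample left out. The fits were first tested on simulated data.

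The subunits and the gene lists were chosen with earlier results of these data known. Named from the other lists were genes called and those with the highest and lowest RPKM, and likeness was computed for called subunits and the most abundant AMPA and NMDA subunit. Some items that these rules name are not reported here. Matplotlib 3.10.9 drew the figures.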

Additional observations from a re-analysis of the deposited data

Results flagged for a closer look

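For Gria2, Gria4 and Grin1, all Klf9 f/f samples lay above all Klf9 +/+ samples within YTa22 and below within YTa32, where each genotype is a single sample. How many of all genes tested showed this pattern was not counted, so it cannot be called particular to these genes. The log2 difference, Klf9 f/f over Klf9 +/+, was 0.23 in YTa22 and -0.23 in YTa32 for Gria2. It was 0.29 and -0.40 for Gria4, the least counted of the 4 AMPA subunits. It was 0.34 and -0.12 for Grin1. The interaction of genotype and series in the quasi-likelihood test of edgeR was -0.47 for Gria2 (standard error 0.35), -0.68 for Gria4 (standard error 0.53) and -0.47 for Grin1 (standard error 0.34). Its unadjusted p was 0.216, 0.231 and 0.196 and its adjusted p 1.00 for each, so the difference between the series did not pass the test for any of them.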

How the results depend on the processing

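Genotype differences kept their sign in all 13 alternatives for Grin1, Grin2a, Grin2c and Grin3a. Grin2b, near 0, was at -0.0075 with DESeq2, -0.011 with upper-quartile scaling, -0.0094 without the series term, -0.0020 with the filter in at least 3 samples and -0.054 in YTa22 alone, where Gria1 was at -0.025. With each sample left out, the log2 fold change ran from -0.040 to 0.17 for Gria1, -0.024 to 0.24 for Gria2, -0.077 to 0.14 for Gria3, -0.13 to 0.28 for Gria4 and -0.15 to 0.22 for Grin2b. Of the 9 subunits, 0 were called with upper-quartile scaling, without the series term, with the filter in at least 3 samples or in YTa22 alone, 2 (Grin2a and Grin2c) with no filter beyond 1 count, and 0 to 1 with each sample left out. Grin2c was called by DESeq2 (unadjusted p = 0.0436) and by the likelihood-ratio test (0.0399). In the quasi-likelihood test its unadjusted p was 0.0578 with upper-quartile scaling and 0.0502 with the filter in at least 3 samples. In the same test it was 0.352 without the series term and 0.128 in YTa22 alone, with log2 fold changes of 0.50 and 0.49. Over all genes, 274 were called up and 376 down, against 50 and 163 without the series term, 513 and 926 with no filter and 163 and 202 in YTa22 alone, with 130 to 493 up and 209 to 719 down when a sample was left out. At an adjusted p under 0.05, 0 genes differed by genotype in the quasi-likelihood test, 58 in the likelihood-ratio test and 39 in DESeq2. Of the 9 ranks by level, 2 were the same with the longest transcript as length. The causes were not tested. Where a YTa32 sample was left out, the other one no longer bore on the genotype.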

Other observations

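Grin2a was followed further after its values had been seen. The genes with the pattern most like it over the 6 samples were Hspb2, a small heat shock protein of muscle, Dlc1 and Zcchc5, at root mean square differences of 0.13, 0.14 and 0.14 log2 CPM against a standard deviation of 0.58 for Grin2a.

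The ratio of Grin2c to Grin2b, on the RPKM scale, was 0.202, 0.282 and 0.894 in Klf9 +/+ replicates 1, 2 and 3 and 0.507, 0.212 and 1.18 in Klf9 f/f replicates 1, 2 and 3. Both YTa32 samples lay above all 4 YTa22 samples, and Klf9 f/f replicate 3 was the single sample in which Grin2c exceeded Grin2b. The ratio of Grin2a to Grin2b ran from 0.300 to 0.581 in Klf9 +/+ and from 0.269 to 0.371 in Klf9 f/f. The ratio of Gria1 to Gria2 ran from 0.741 to 0.923 in Klf9 +/+ and from 0.671 to 1.10 in Klf9 f/f, with merged exons as length, and Klf9 f/f replicate 3 was above 1. With the longest transcript as length Klf9 +/+ replicate 1 was above 1 too.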
